A study of Mus musculus with 16 samples.

Results

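Upk1b, Klk8, Slc2a5, Cd34, Rxrg, Mlxipl, Etv4 and Klf12 are 8 of the 24411 genes counted in brain macrophages of bone marrow chimeras. They were chosen on measured values, because their read counts were much higher in control host microglia (CD452) than in control engrafted cells (CD451). The question was how an endotoxin challenge changed them in host microglia, and whether the graft gained any of them.

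C57BL/6J recipients carrying CD45.2 were lethally irradiated (950 cGy) and received wild-type marrow carrying CD45.1, so the host microglia studied here had been irradiated too. The labels allow 3.5 or 9 months from transplantation to challenge without assigning either to a library, and the longer time is the one described for the challenged chimeras. Mice 1 to 4 received lipopolysaccharide (LPS, a bacterial cell wall component that activates Toll-like receptor 4) intraperitoneally at 2.5 mg/kg for 12 h, and mice 5 to 8 were unchallenged controls. Engrafted cells (CD45.1 low) and host microglia (CD45.2 low) were sorted from the same brain as Ly6C/G-negative CD11b+ cells, which gave 16 libraries in 4 groups of 4. Each library held 395283 to 1203597 reads on genes (median 820588). Values are CPM (reads of a gene per fixed library size) after edgeR's TMM scaling over the 16 libraries. The limit that a count of 0 allows, 3 reads, lay between 2.34 and 8.73 CPM, and it covers counting error only. Of 14 microglia identity genes, all had over 3 reads in a library of every group. Their summed level was 31804 to 34867 CPM in control and 14925 to 17703 CPM in LPS host libraries, against 17796 to 19730.0 CPM in control and 7129 to 9056 CPM in LPS engrafted libraries.

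Microglia arise from yolk sac progenitors and keep a gene program that depends on signals of the brain, whereas engrafted cells derive from hematopoietic stem cells. LPS is known to lower many genes of the resting microglia program while it induces cytokines and chemokines. The 8 genes have unlike roles. Slc2a5 encodes the fructose transporter GLUT5. Upk1b encodes uroplakin 1b, a tetraspanin best known from the bladder lining. Klk8 encodes the secreted serine protease neuropsin, and Cd34 a sialomucin of the cell surface. The other 4 encode transcription factors, namely the retinoid X receptor gamma (Rxrg), the carbohydrate-responsive factor ChREBP (Mlxipl), the PEA3-type ETS factor Etv4 and the Krüppel-like factor Klf12.

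To show promoters along the range of responses, the 200 bases before the annotated start are given for Slc2a5 and Upk1b, which fell most in host microglia, for Klk8, which fell less and kept a wide gap to the graft, and for Etv4, which fell least. They were read from the mm9 genome on the gene's strand, 5′ to 3′, at chr4:149493192-149493391 (plus strand), chr16:38800317-38800516 (minus), chr7:51052747-51052946 (plus) and chr11:101646686-101646885 (minus). Capitals mark a match to one of the motifs searched.
Slc2a5: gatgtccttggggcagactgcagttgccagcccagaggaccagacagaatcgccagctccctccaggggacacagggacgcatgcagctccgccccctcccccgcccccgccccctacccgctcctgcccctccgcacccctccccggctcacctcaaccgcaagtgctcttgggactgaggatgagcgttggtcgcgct
Upk1b: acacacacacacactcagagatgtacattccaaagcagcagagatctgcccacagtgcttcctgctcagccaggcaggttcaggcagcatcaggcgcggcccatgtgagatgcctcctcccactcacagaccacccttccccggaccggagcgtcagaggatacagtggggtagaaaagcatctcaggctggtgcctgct
Klk8: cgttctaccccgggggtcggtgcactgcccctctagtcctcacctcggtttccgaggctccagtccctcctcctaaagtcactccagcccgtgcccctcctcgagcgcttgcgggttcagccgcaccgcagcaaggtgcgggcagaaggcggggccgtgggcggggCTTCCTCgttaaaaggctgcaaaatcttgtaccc
Etv4: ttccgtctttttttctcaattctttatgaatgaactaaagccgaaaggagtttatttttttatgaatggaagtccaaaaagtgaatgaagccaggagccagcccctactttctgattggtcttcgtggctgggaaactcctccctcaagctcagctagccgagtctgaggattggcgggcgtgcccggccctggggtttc
The Slc2a5 window held 69% G and C with 12 CpG, the Klk8 window 65.5% with 16 and the Upk1b window 58.5% with 5. The Etv4 window was poorer in G and C (48%, 7 CpG), where the median of 24200 promoters was 55% with 7 CpG. The motif letters searched on both strands were GAGGAAG for PU.1, TGANTCA for AP-1, CACGTG for the E-box and TATAAA for the core promoter box of that name. PU.1 letters lay on the minus strand of Klk8, at 34 to 28 bases before its start, and in the window of Klf12, where letters of the core promoter box also lay. They occur in 8.63% and 9.69% of all promoters of this length. AP-1 and E-box letters (5.06% and 5.67% of promoters) were in none of the 8 windows, which says nothing about other positions.

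Before challenge, the levels that chose the members are a description. The engrafted cells held 2.03% of the host level of Upk1b, 2.66% of Klk8, 4.25% of Slc2a5 and 4.07% of Etv4, taken as ratios of group means. The corresponding shares were 10.6% for Klf12, 11.5% for Mlxipl and 14.9% for Cd34. Rxrg had 0 reads in the 4 control engrafted libraries, which made it at least 57.9-fold lower there against a limit of 3 reads over the group. On the log2 scale of the fitted difference, Klf12 (-3.37), Mlxipl (-3.13) and Cd34 (-2.71) lay nearest to the edge of the choice, and the members ranked from 1 (Rxrg) to 74 (Cd34) toward host microglia among 8042 genes tested. Since the choice fixed no numeric threshold, other genes of the same ranks lie outside it.

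**Figure D1:**
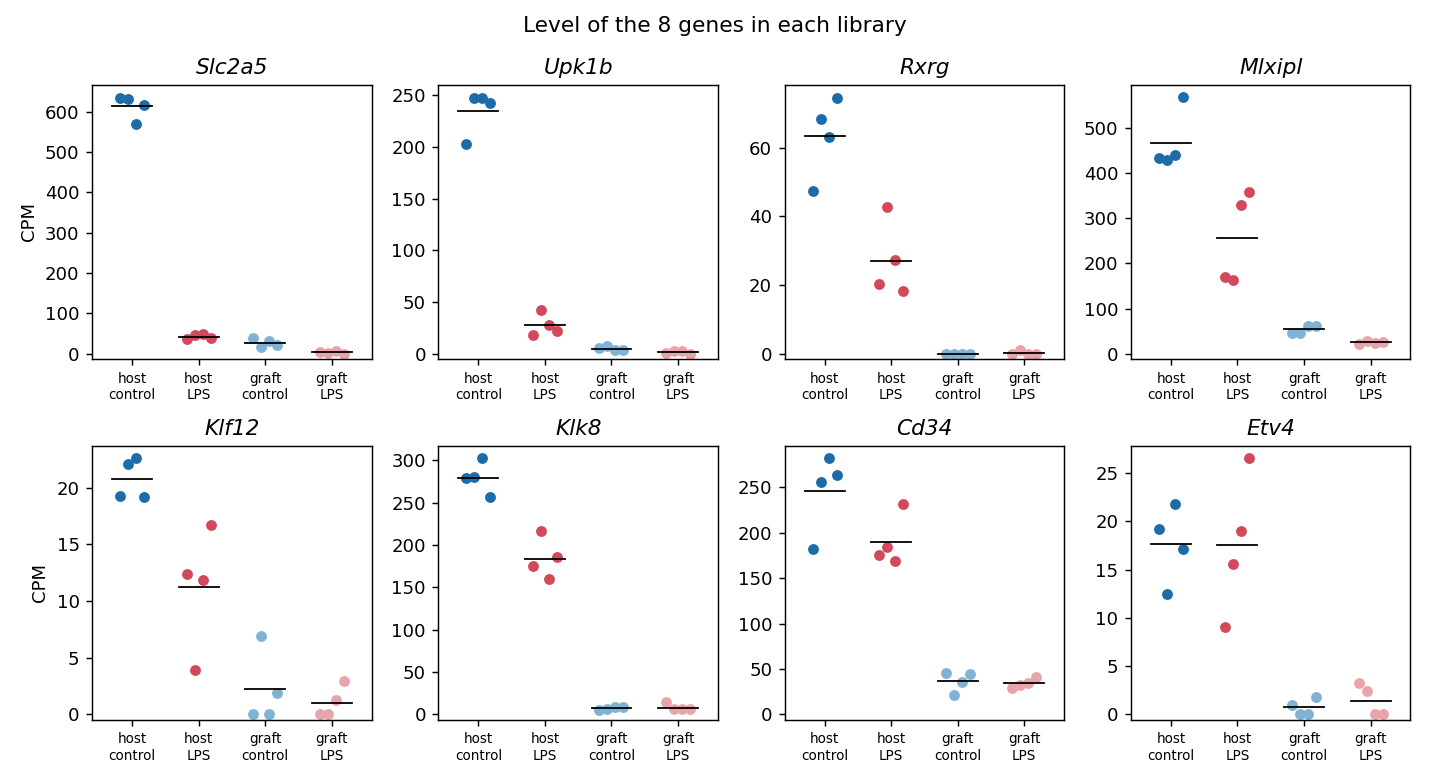
Level of each of the 8 genes in CPM (linear axis from 0, its own scale per gene) in every library. Points are libraries, lines are means of 4, and dark colors are host microglia. In host microglia Slc2a5 and Upk1b dropped to 42.0 and 27.4 CPM after LPS, while Etv4 kept a mean of 17.5 CPM.

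In host microglia, LPS lowered 3 of the 8 genes past 2-fold, Slc2a5, Upk1b and Rxrg, and raised none. For 6 of the 8, all 4 challenged libraries lay below all 4 controls. The control host libraries also entered the choice of members, so the fall is not independent of that choice. All 8 entered the quasi-likelihood test of edgeR, adjusted by Benjamini-Hochberg over 8238 genes, and a gene was called at a log2 fold change beyond 1 in either direction with an adjusted p below 0.05. Of all tested genes, 10.4% were called lower, 7.66% were called higher and 18.7% had all challenged libraries below all controls. In bulk samples, fewer cells of a type and less RNA per cell cannot be told apart.

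Slc2a5, at chromosome 4, 149493453 to 149518277 of mm9 (NM_019741), fell furthest. Without challenge, host libraries held 634, 632, 569 and 617 CPM (mice 5 to 8). Those of challenged mice held 36.1, 46.7, 47.5 and 37.7 CPM (mice 1 to 4). The groups lay far apart, and both were tight, at 613 ± 30.6 against 42.0 ± 5.93 CPM (SD, n = 4). The fall was 14.5-fold (95% interval 11.5 to 18.4), or -3.86 on the log2 scale (standard error, SE, 0.16, edgeR adjusted p = 2.735e-13). Of the 8238 genes tested, 10 fell more. Challenged host microglia held 1.61 times the mean Slc2a5 level of unchallenged engrafted cells, a comparison of levels with no test.

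Upk1b, at chromosome 16, 38773297 to 38800316 (NM_178924), was the other member with a large fall. Without LPS, host libraries held 203, 247, 248 and 243 CPM, and challenged ones 18.1, 41.8, 27.3 and 22.3 CPM. No library of one group came near the other, and 11.6% of the control mean remained. In log2 units the fall was -3.08 (SE 0.20, edgeR adjusted p = 1.538e-10), with 36 genes falling more. Summed epithelial markers stood at 4.67 to 26.0 CPM in control and 6.77 to 38.0 CPM in challenged host libraries. After LPS that sum was of a size with Upk1b itself, and its part in the Upk1b value was not tested. Of the 12 epithelial markers, 4 passed 3 reads in a library of each host group, and Grhl2 stood at 0 in both.

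Rxrg, at chromosome 1, 169548396 to 169569754 (NM_001159731), fell 2.30-fold. In controls the host held 47.4, 68.3, 63.1 and 74.6 CPM. Host libraries of challenged mice held 20.3, 42.8, 27.3 and 18.2 CPM. The highest challenged library, mouse 2, lay just under the lowest control, mouse 5. On the log2 scale the change was -1.20 (SE 0.24, edgeR adjusted p = 0.000346). Of 13 other retinoid X receptors and partner receptors, 5 were tested in host microglia. None was called higher, and Thra, a thyroid hormone receptor, fell from 17.4 ± 5.18 to 8.71 ± 3.21 CPM (log2 fold change -1.03, or -0.88 with a prior count of 2 in the fit, edgeR adjusted p = 0.0221).

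Mlxipl, at chromosome 5, 135582761 to 135614252 (NM_021455), was lower without passing 2-fold. Host controls held 433, 429, 441 and 568 CPM. In challenged mice the host held 170, 162, 330 and 359 CPM, with mice 1 and 2 close together and mice 3 and 4 well above them. No challenged library reached a control library. The change was -0.89 on the log2 scale (SE 0.21, edgeR adjusted p = 0.00174). Leaving out challenged mouse 3 or mouse 4 took it past 2-fold (-1.03 and -1.09 on the log2 scale). Its partner genes Mlx and Mlxip were both tested and neither was called in host microglia. Of 16 genes known as targets of ChREBP, 8 were tested, and Fasn (fatty acid synthase) rose from 24.6 ± 5.75 to 65.1 ± 6.40 CPM (log2 fold change 1.43, edgeR adjusted p = 1.184e-05). None was called lower, with Txnip, an inhibitor of thioredoxin, just short of 2-fold (679 ± 57.4 to 345 ± 69.8 CPM, log2 fold change -0.99, edgeR adjusted p = 2.027e-05).

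Klf12, at chromosome 14, 100269862 to 100549015 (NM_010636), rested on few reads. The 4 host controls held 19.3, 22.1, 22.6 and 19.2 CPM (13 to 29 reads). After LPS the values were 12.4, 3.89, 11.9 and 16.8 CPM (4 to 12 reads). The groups did not overlap, yet the fold was not past 2 (log2 fold change -0.95, SE 0.33, edgeR adjusted p = 0.0249). It passed 2-fold without control mouse 8 (-1.00036), challenged mouse 1 (-1.02) or challenged mouse 4 (-1.18). Of 16 other KLF genes, 8 were tested in host microglia, of which 2 were called higher and none lower. Klf2 (log2 fold change -0.84, edgeR adjusted p = 0.00142) and Klf3 (-0.59, edgeR adjusted p = 0.00655) did not pass 2-fold. Klf9 went from 8.15 ± 4.97 to 148 ± 7.83 CPM (log2 fold change 4.22, edgeR adjusted p = 8.485e-11) and Klf13 from 160.4 ± 24.7 to 791 ± 155 CPM (2.30, edgeR adjusted p = 8.167e-10).

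Klk8, at chromosome 7, 51052947 to 51059192 (NM_008940), changed less than those. Control values in the host were 279, 279.9, 302 and 256 CPM. The 4 challenged libraries held 175, 216, 159 and 186 CPM. All challenged libraries lay below all controls, and 65.9% of the control mean remained. The log2 fold change of -0.61 (SE 0.14) did not pass 2-fold, although its adjusted p was 0.00179 (edgeR). Summed neuron markers stood at 30.4 to 320.2 CPM in control and 20.3 to 31.1 CPM in challenged host libraries, which overlap. The highest sum was that of control mouse 5, whose Klk8 value lay within the range of the other controls. The part of such cells in the Klk8 value was not tested. Of the 12 other kallikrein-related peptidases, none had enough reads for the test.

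Cd34, at chromosome 1, 196765015 to 196787486 (NM_001111059), was not called. Control host libraries held 182, 256, 283 and 263 CPM. Challenged host libraries held 175, 185, 169 and 232 CPM. The control library of mouse 5 lay among the challenged ones, so the groups overlapped. This made a log2 change of -0.39 (95% interval -0.72 to -0.06, edgeR adjusted p = 0.0557). Cd34 also marks endothelial cells. Of 12 endothelial markers, Pecam1 and Eng passed 3 reads in a host library, while Tek and Slco1a4 had 0 reads in all host libraries. The summed list, nearly all Eng, went from 345 to 414 CPM in control to 170.2 to 245 CPM in challenged host libraries.

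Etv4, at chromosome 11, 101631056 to 101646624 (NM_008815), showed no difference that this depth could detect. Control host libraries held 19.3, 12.5, 21.8 and 17.1 CPM. Challenged host libraries held 9.03, 15.6, 19.0 and 26.5 CPM. The groups overlapped fully, and the means were 17.7 ± 3.94 and 17.5 ± 7.29 CPM (SD, n = 4). The log2 change was -0.05 with a 95% interval from -0.70 to 0.59 (edgeR adjusted p = 0.909). Its relative Etv5 fell in the same libraries from 102 ± 14.5 to 28.7 ± 12.2 CPM (log2 fold change -1.86, edgeR adjusted p = 2.383e-06), and Etv1 was tested and not called. Of 9 ERK feedback genes, 3 were tested in host microglia, none was called higher, and Spry1 fell (log2 fold change -1.18, or -0.998 with a prior count of 2, edgeR adjusted p = 0.00914).

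**Figure D2:**
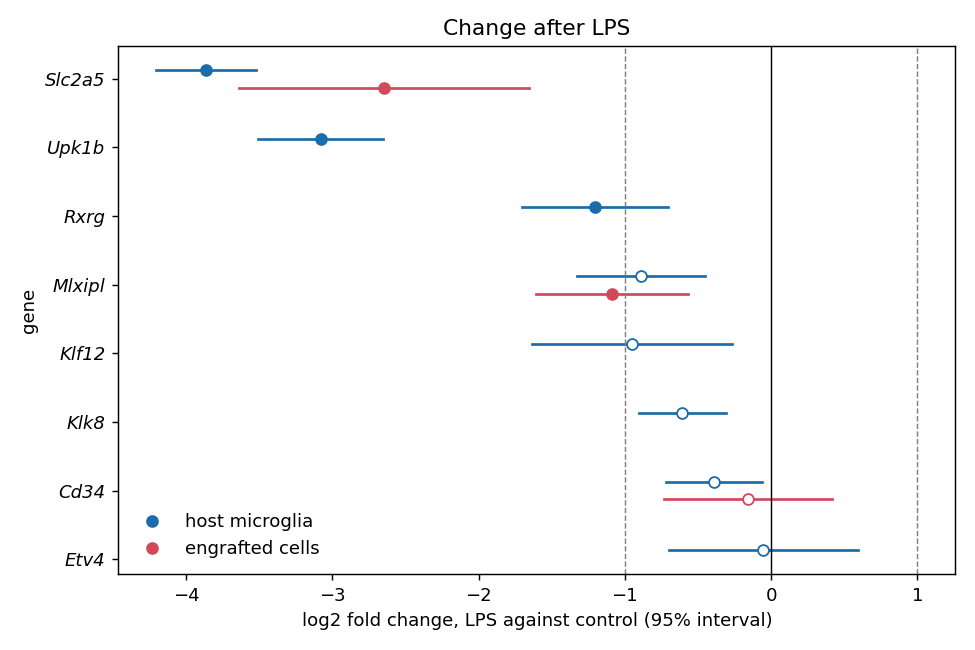
Log2 fold change after LPS with its 95% interval for each gene, in host microglia (blue) and, where enough reads allowed the test, in engrafted cells (red). Filled points passed 2-fold and an adjusted p of 0.05, dashed lines mark 2-fold. Every point lies at or left of 0, from -3.86 for Slc2a5 to -0.05 for Etv4 in host microglia.

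No gain of any of the 8 genes was detected in the graft, within the depth of these libraries. In engrafted cells 3 members (Slc2a5, Mlxipl and Cd34) passed the filter for low counts, Slc2a5 and Mlxipl were called lower after LPS, and none was called higher. Of the 7609 genes tested in engrafted cells, 11.3% were called lower, 10.2% were called higher and 17.7% had all challenged libraries below all controls. Of 10 monocyte markers, 9 were called higher after LPS in engrafted cells and Ccr2 was called lower (159.6 ± 66.8 to 46.2 ± 13.4 CPM, log2 fold change -1.78, edgeR adjusted p = 6.264e-05). The 10 markers summed to 295 to 467 CPM in control and 2453 to 6623 CPM in challenged engrafted libraries, with Ly6c2 at 22.3 to 40.2 and 428 to 858 CPM, although the sort removed Ly6C/G-positive cells. All 10 passed 3 reads in a challenged engrafted library. The part of such cells in the engrafted values below was not tested. Summed neutrophil markers were at 274 to 1272 CPM in control and 48.0 to 504 CPM in challenged engrafted libraries, which overlap. Of 5 tested, Camp was called lower (log2 fold change -1.84, edgeR adjusted p = 0.0271) and Mmp8 higher (5.68, edgeR adjusted p = 1.217e-06).

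Slc2a5 in the graft rested on few reads. Control engrafted libraries held 37.9, 15.6, 30.2 and 20.4 CPM, and challenged ones 4.39, 2.40, 7.69 and 0 CPM (0 to 6 reads). The groups did not overlap. The fitted log2 change was -2.65 (SE 0.47, edgeR adjusted p = 0.000178). The prior count added in the fit weighs on a gene this low, and with a prior count of 2 the value was -2.09, and -1.79 by limma-trend on the study's scale. It passed the filter through its control reads, from libraries that also entered the choice of members, and without control mouse 5 it was not tested, so its call is not counted as support.

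Mlxipl in control engrafted cells stood at 46.1, 45.2, 62.0 and 61.2 CPM, and in challenged ones at 20.9, 28.8, 24.3 and 26.2 CPM. The challenged libraries all lay below the controls. This was a log2 change of -1.09 (SE 0.25, edgeR adjusted p = 0.00163), close to the 2-fold limit. It was -0.98 without challenged mouse 1 and -0.86 on the study's own scale, both under 2-fold. Mlx rose to 70.3 ± 6.62 CPM in these cells (log2 fold change 1.02, or 0.97 with a prior count of 2, edgeR adjusted p = 0.000849). Of 7 tested targets of ChREBP, Scd2 (log2 fold change 2.16, edgeR adjusted p = 1.442e-07) and Tkt (1.11, edgeR adjusted p = 0.000364) rose and none was called lower, with Txnip at -0.87 (edgeR adjusted p = 0.000775).

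Cd34 differed little between control (46.1, 20.9, 35.2 and 44.5 CPM) and challenged engrafted libraries (28.5, 32.4, 34.6 and 40.7 CPM). The challenged values lay within the range of the controls. The log2 change was -0.16 (95% interval -0.73 to 0.42, edgeR adjusted p = 0.680).

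The remaining 5 genes had too few reads in engrafted cells for the test across genes, and a two-sided exact permutation test was used, whose smallest p is 0.0286. Klk8 was counted at 5.12, 6.95, 8.38 and 9.27 CPM in control and 14.3, 6.01, 6.40 and 5.82 CPM in challenged engrafted libraries. Mouse 1, with 13 reads, stood above the rest, and the difference of 0.694 CPM was within the spread (exact permutation p = 0.857). In one fit of all 16 libraries, its log2 fold change had a 95% interval from -0.50 to 1.05, which just includes a 2-fold rise. Etv4 had at most 1 read in a control and at most 3 in a challenged engrafted library (exact permutation p = 0.543), where the interval from -1.14 to 3.28 leaves room for a rise that this depth could not show. Rxrg went from 0 reads to 1 read over 4 libraries (exact permutation p = 1), and Klf12 from 5 reads to 2 (exact permutation p = 0.714). Their intervals in the fit of all 16 libraries, -1.43 to 4.85 for Rxrg and -3.69 to 1.19 for Klf12, also include a 2-fold rise. Upk1b went from 2 to 5 reads per library to 0 to 2 reads, from 4.78 ± 1.64 to 1.52 ± 1.20 CPM (SD, n = 4), without overlap (exact permutation p = 0.0286). All of its challenged libraries were under the 3-read limit. Control mice 7 and 8 and challenged mice 2 and 3 each had 2 reads, so the separation rests on library size. In the fit of all 16 libraries the Upk1b change was -1.40 (95% interval -2.70 to -0.09, edgeR adjusted p = 0.0874) and was not called. Summed epithelial markers stood at 15.1 to 541 CPM in control and 1.20 to 32.0 CPM in challenged engrafted libraries, which overlap. Their part in the Upk1b value was not tested.

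After LPS every member remained lower in engrafted cells than in host microglia, in mice that had not entered the choice. For each of the 8, all 4 engrafted libraries lay below all 4 host libraries, against 10.2% of the 7843 genes tested, of which 4.34% were called lower in engrafted cells. The 6 members that passed the filter were helped there by their host reads, so their being called is not counted as support. Klk8 kept the widest tested gap of -4.38 in log2 units (SE 0.27, edgeR adjusted p = 2.069e-09) apart from Rxrg, which had 98 reads in host and 1 in engrafted libraries. The fitted Rxrg gap was -5.77 (SE 0.68, edgeR adjusted p = 5.747e-06). Its ratio of summed reads was 81.0, with a counting interval from 14.2 to 3229.8 that leaves out the spread between mice. Upk1b differed by -3.87 (SE 0.50, edgeR adjusted p = 1.897e-05), Mlxipl by -3.34 (0.30, edgeR adjusted p = 2.191e-07) and Slc2a5 by -3.29 (0.39, edgeR adjusted p = 7.157e-06). Cd34 differed least among those tested, by -2.50 (SE 0.20, edgeR adjusted p = 5.955e-08). Etv4 (17.5 against 1.42 CPM) and Klf12 (11.2 against 1.05 CPM) were too low for that test (exact permutation p = 0.0286 for each).

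**Figure D3:**
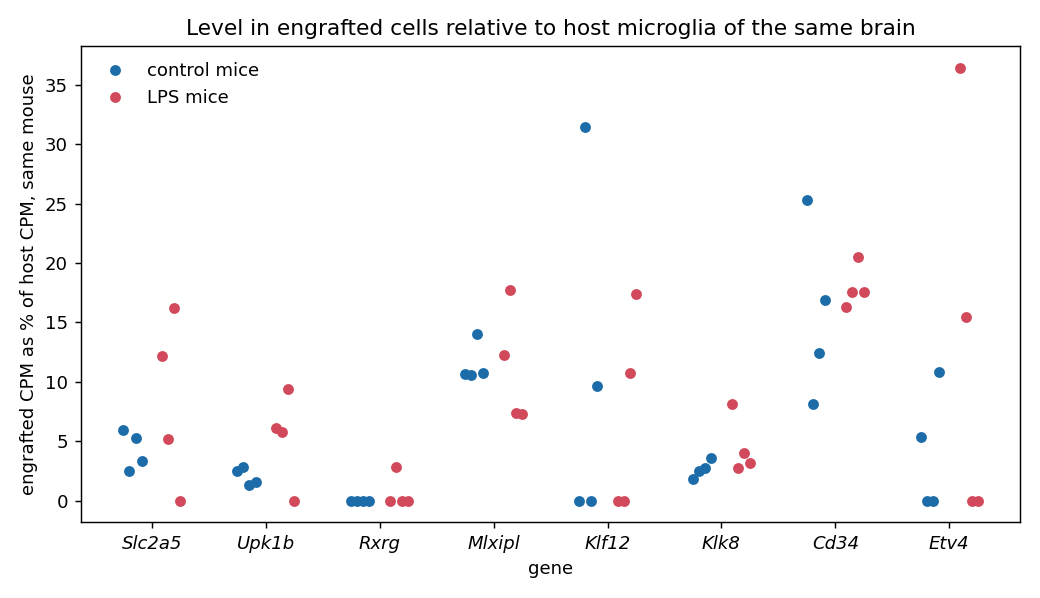
Level in engrafted cells as a percentage of the host level in the same mouse, for 4 control mice (blue) and 4 LPS mice (red). Cd34 ranged from 8.15 to 25.3% in control and 16.3 to 20.5% in LPS mice. The points of Etv4, Klf12 and Rxrg rest on 0 to 4 engrafted reads each. Those of Upk1b rest on 0 to 5, those of Klk8 on 2 to 13 and those of Slc2a5 in LPS mice on 0 to 6.

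The distance between graft and host was also expressed within each brain. The engrafted share of the host level went from 4.25 to 8.62% for Slc2a5 and from 2.03 to 5.53% for Upk1b as ratios of means. The engrafted mean was lower after LPS for both, but on few reads, and neither fall is counted as support. For Slc2a5 the share per mouse was 2.48 to 5.97% in control and 0 to 16.2% in challenged mice, which overlap. For Upk1b it was 1.35 to 2.81% and 0 to 9.38%, which overlap too, with 5 engrafted reads in all after LPS. For Mlxipl the shares were 10.5 to 14.1% and 7.30 to 17.7%. Whether the response to LPS differed between the populations was not tested, because that contrast contains the one that chose the genes.

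Of 11 other SLC2 hexose transporters, 4 were tested in host microglia, where 2 were called higher and 1 lower. Slc2a1, the basal glucose transporter GLUT1, rose from 32.9 ± 7.38 to 104 ± 16.4 CPM (log2 fold change 1.65, edgeR adjusted p = 8.799e-07). Slc2a3, the high-affinity glucose transporter GLUT3, rose from 6.07 ± 1.24 to 28.4 ± 7.71 CPM (2.16, edgeR adjusted p = 1.03e-05). Slc2a8 fell from 104 ± 32.9 to 42.9 ± 15.1 CPM (-1.29, edgeR adjusted p = 0.000229). In engrafted cells Slc2a1 rose too (1.70, edgeR adjusted p = 3.84e-05), and the other 3 tested were not called. After LPS Slc2a6 was higher in engrafted cells (131 ± 53.6 against 35.8 ± 4.69 CPM, edgeR adjusted p = 3.176e-05). The 5 other uroplakins had at most 4 reads in a library and none was tested.

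Of 8 retinoid X receptors and partners tested in the graft, 2 were called higher and none lower, beside 10.2% and 11.3% of all genes tested. Rara, a retinoic acid receptor, went from 26.0 ± 4.64 to 106 ± 34.5 CPM (log2 fold change 2.06, edgeR adjusted p = 2.581e-06), and Nr1h3, the liver X receptor alpha, from 4.11 ± 2.17 to 55.9 ± 26.8 CPM (3.63, edgeR adjusted p = 3.344e-06). After LPS, 3 of the 8 tested were higher in the graft than in the host (Rara, Nr1h3 and Rarg), whereas Rxrg was lower. Challenged host means of those 3 were only 1.47 CPM for Rara, 0.995 CPM for Nr1h3 and 1.18 CPM for Rarg. They passed the filter through their engrafted reads, so their being called is not counted as support. Over all 7843 genes tested, 528 were called higher in engrafted cells. In the graft Etv5 fell (-1.11, edgeR adjusted p = 0.0101), as did the ERK phosphatase gene Dusp6 (-1.54, edgeR adjusted p = 1.118e-05), 1 of 2 ERK feedback genes tested. Klf9 (4.12, edgeR adjusted p = 5.098e-10) and Klf13 (1.94, edgeR adjusted p = 1.704e-07) rose and Klf4 fell (-1.03, edgeR adjusted p = 0.000703), of 8 KLF genes tested. After LPS Klf2 was higher in engrafted than in host cells (1.44, edgeR adjusted p = 0.0179). Its engrafted libraries were widely spread, at 966 ± 834 against 355 ± 115 CPM. Of 8 targets of ChREBP tested after LPS, Fasn (-1.09, edgeR adjusted p = 0.00125), Khk (-1.53, edgeR adjusted p = 1.582e-05) and Gpd1 (-2.13, edgeR adjusted p = 0.00130) were lower in engrafted cells, and Scd2 was higher (1.25, edgeR adjusted p = 7.74e-05). Over all genes tested, 4.34% were called lower. Gpd1 (40.6 against 8.37 CPM) passed the filter through its host reads and is 1 of the 107 host-restricted genes described below. Its call is therefore not counted as support.

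Other genes restricted to host microglia give the members a setting. Selected on the same control contrast, 107 further genes were lower in engrafted cells by more than 2 on the log2 scale at an adjusted p below 0.05. Their median log2 fold change after LPS in host microglia was -0.97 (quartiles -1.87 and -0.22), against 0.01 over all 8238 genes, and 53 were called lower and 9 higher. Slc2a5 fell more than all but 2 of them and Upk1b more than all but 10, while 86 of the 107 fell more than Etv4. Since the control host libraries both chose and served in the comparison, these counts are a description. In engrafted cells 30 of the 107 passed the filter, of which 15 were called higher and 8 lower after LPS (median log2 fold change 1.01). Genes this low in control engrafted cells pass mainly where they are high, so these counts support no direction. In one fit of all 16 libraries, where all 107 were tested, 19 were called higher (17.8%, against 9.81% of all genes) and 27 lower (25.2%, against 12.5%). The control engrafted libraries chose these genes for low values there and are also the baseline here. That choice favors a rise, so these shares are a description and show no gain.

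**Figure D4:**
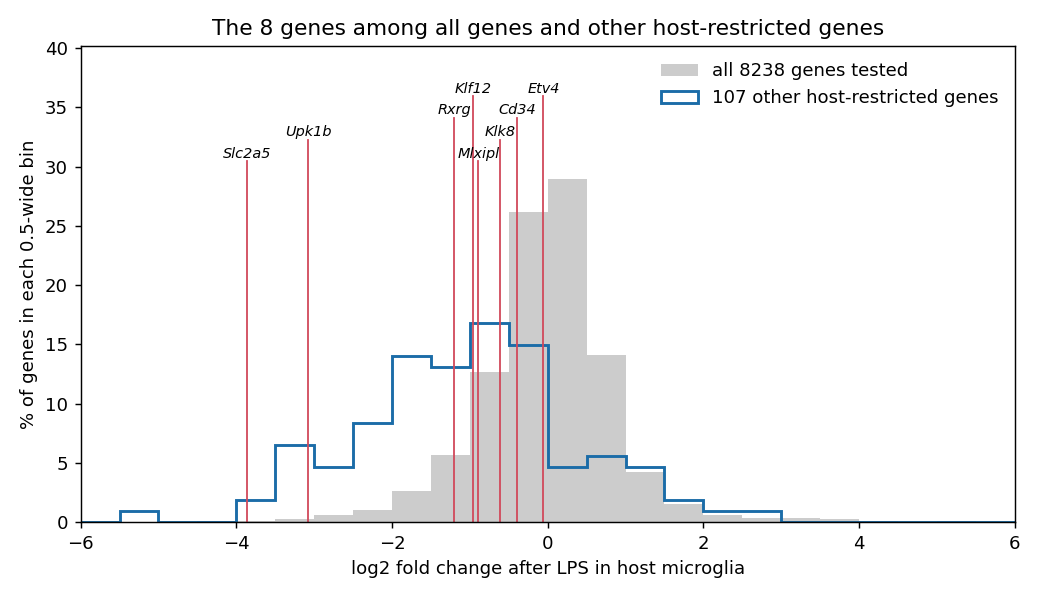
Share of genes in each 0.5-wide bin of the log2 fold change after LPS in host microglia, for all 8238 genes tested (grey) and 107 other host-restricted genes (blue outline), with the 8 genes as red lines and genes beyond the axis ends not drawn. Slc2a5 (-3.86) and Upk1b (-3.08) stand in the lower tail, and Etv4 (-0.05) near the median of all genes.

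Across the 16 libraries, the mean profile of the 8 genes was followed most closely by Siglecf (Pearson's r = 0.982), Selplg (0.973), Pros1 (0.968), Gp9 (0.966), Lrba (0.965) and Pla2g4a (0.965), out of 8839 genes compared on log2(CPM + 1). Such values mostly reflect the 4 groups, and the libraries of a mouse share an animal. Siglecf, a sialic acid-binding receptor, went from 34.9 to 15.1 CPM in host microglia after LPS and from 2.29 to 1.17 CPM in engrafted cells. Selplg, the ligand of P-selectin, went from 7221 to 3035 CPM in host microglia and from 1069.6 to 1026 CPM in engrafted cells.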

How the data were processed

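RNA of engrafted cells and host microglia of 8 chimeras was sequenced. Deposited by the authors were raw read counts from MARS-seq derived 3′ libraries of about 10000 sorted cells, mapped to NCBI37 (mm9) with HISAT (0.1.5 in the submitters' processing notes), uniquely mapped and counted on exons of the sense strand with HOMER. No removal of duplicates is named. A 3′ count does not compare levels between genes.

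Groups follow the labels. Tests used R 4.3.3 and edgeR 4.0.16 (TMM, filterByExpr with minimum count 10 and total 15, quasi-likelihood test, Benjamini-Hochberg adjustment), within the 2 groups compared. Standard errors come from the fold change and F. The plan named no prior count for fitted fold changes. It was first set to 2 and changed to edgeR's default of 0.125 after results had been seen. Values at 2 are among the alternatives, and p-values do not depend on it. Single low genes had a two-sided exact permutation test of CPM.

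Alternatives were RLE factors, library totals, DESeq2 1.42.0, no filter, all libraries in one fit, limma-trend (limma 3.58.1) on log2(reads per 10000000 tags + 34), the mouse as block, and leaving out each library. Both populations came from the same animal, which pairs them. Residuals of both libraries of a mouse correlated at r = 0.123, 0.0142, 0.194, 0.114, 0.0183, -0.0335, 0.0517 and 0.0770 (mice 1 to 8). Replicate libraries differed by 1.98 to 8.64 times counting noise (24 pairs), so none was a copy.

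The members and lists were chosen with earlier results of these data known. Every member is named, and of a list the called genes, at most 4 per comparison. The 6 genes most like the members were named by r. Promoters were read from mm9 at the table's start, or an annotated start up to 500 bases upstream. The tests were also run on simulated counts with known changes. Longer patterns for NF-kB, interferon response elements and MEF2 were also searched in a first pass and are not reported here. One gene of a list is not reported here.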

Additional observations from a re-analysis of the deposited data

Results flagged for a closer look

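For each gene, the 4 libraries of each group were checked for a library far from the other 3, by Dixon's ratio at its 95% limit. Of 32 sets of 4, 4 held one. Chance gives about 1 in 20 for continuous values, which sets with counts near 0 are not, so the 2 rates cannot be compared. In control host microglia Upk1b stood at 203 CPM in mouse 5 (137 reads), below 243 to 248 CPM in the others. In the same group Mlxipl stood at 568 CPM in mouse 8, above 429 to 441 CPM. In challenged engrafted cells Klk8 stood at 14.3 CPM in mouse 1 (13 reads), above 5.82 to 6.40 CPM, and without that library the challenged mean was 1.35 CPM lower than the control mean. Rxrg stood at 1.20 CPM in mouse 2, which is 1 read against 0 in the other 3, a set that the ratio always flags. No gene moved one way in all libraries of one population and the opposite way in the other.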

How the results depend on the processing

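In host microglia the 3 called members stayed called under RLE factors, library totals, DESeq2, no filter, one fit of all libraries, limma-trend and a prior count of 2, and 3 to 5 members were called when single libraries were left out (5 without challenged mouse 4). In engrafted cells 2 members were called except under limma-trend on the study's scale (1), and 1 to 2 with a library left out (1 without control mouse 5, when Slc2a5 was not tested, or without challenged mouse 1, when Mlxipl was under 2-fold). After LPS 6 to 8 were called with a library left out. Without a filter, 1352 genes were called after LPS instead of 868. The prior count of 2 changed no member's call. It lowered all calls from 1484 to 1324 in host microglia, from 1637 to 1448 in engrafted cells and from 868 to 813 after LPS, and took Thra (-0.88), Mlx (0.97) and Spry1 (-0.998) under 2-fold. The other host-restricted genes were then 93, with a median of -0.93. At limits of -1 and -3 that median was -0.84 and -1.24.

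Etv4 in host microglia turned to 0.09 without control mouse 7, 0.17 without challenged mouse 1 and 0.0024 without challenged mouse 2 (range -0.28 to 0.17 with a library left out), and Cd34 in engrafted cells to 0.036 on the study's scale. Without single libraries the CPM differences ranged from -3.74 to -2.54 for Upk1b in engrafted cells and after LPS from -18.9 to -13.1 for Etv4 and -12.6 to -8.35 for Klf12 (exact permutation p up to 0.0571). In engrafted cells they ranged from -1.35 to 1.46 for Klk8 (exact permutation p up to 1) and -1.89 to 0.43 for Klf12 (up to 0.886, exact). The cause was not tested. Library totals moved the median of all genes after LPS to -0.16 and the split from 528 higher and 340 lower to 448 and 470. On the study's scale the split in engrafted cells was 774 and 576 against 779 and 858. With the mouse as replicate block, 6 members and 882 genes were called after LPS, and no member's call changed. Depth limits Etv4, Klf12, Rxrg and Upk1b in engrafted cells.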
